A study of Homo sapiens with 6 samples.

Results

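The TNF superfamily ligands and death receptors are 10 genes, 4 for ligands (TNF, TNFSF9, TNFSF10 and TNFSF15) and 6 for receptors (TNFRSF1A, TNFRSF1B, TNFRSF10A, TNFRSF10B, TNFRSF21 and FAS). They were taken by symbol from the 74852 genes of the deposited table, where each had 1 row. MDA-MB-231, an established mesenchymal triple-negative breast cancer (TNBC) cell line, was transfected with a pool of control siRNAs (si-CTRL, n = 3) or a pool of siRNAs against the mitotic kinase NEK2 (si-NEK2, n = 3), and polyA RNA was sequenced. The sample records give 2 rounds of transfection for both groups and a harvest 24 h after the second, whereas the methods time the harvest differently. All libraries come from 1 cell line and 1 pool per group, and nothing states whether the 3 samples of a group were separate cultures prepared on separate days, so the p-values measure only the spread between these samples, which may be technical.

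TNF superfamily ligands are made as membrane proteins of the cell surface, and several are cut off by proteases to act at a distance. They bind receptors of the TNF receptor superfamily, which signal through TRAF adaptors to NF-kB and MAP kinases. A subset of these receptors carries a death domain in the cytoplasmic tail, through which FADD or TRADD can recruit caspase 8 and start apoptosis. Decoy receptors bind the same ligands but do not pass on the death signal. In breast cancer lines the axis of TNFSF10, better known as TRAIL, and its receptors has been studied as a way to induce apoptosis.

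Windows from the promoters of 4 of the genes are shown first, for a pair of GAAA blocks and a TATAAA box. Other motifs were likewise found in only some of the promoters at hand, and their windows are not printed. The motifs were chosen with earlier results of these data known. RefSeq promoters (GRCh38.p14, from 250 bases before to 50 after an annotated start) were at hand for 8 of the 10 genes, all except TNFRSF10A and TNFRSF10B. A pair of GAAA blocks with any 2 bases between them, the core of elements bound by interferon regulatory factors, was in the promoters of TNFSF9, TNFSF10 and TNFRSF1B and in 3.57% of all 35116 promoters. In the windows of 30 bases below, written 5′ to 3′ along the gene, capitals mark these letters or, for TNFSF10 and TNFRSF1B, their reverse complement.
TNFSF9, chr19:6530822-6530851, plus strand: tggaaggccgGAAACGGAAAggagagcgaa
TNFSF10, chr3:172523598-172523627, minus strand: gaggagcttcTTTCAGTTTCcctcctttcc
TNFRSF1B, chr1:12166961-12166990, plus strand: tggcccgctggggcgcgggcTTTCGCTTTC

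The match began 194 bases before the start in TNFSF9, 187 before it in TNFSF10 and 10 before it in TNFRSF1B. A TATAAA box, which positions the start of transcription, was present in the ligand genes TNF, TNFSF9 and TNFSF10. In these it lay on the strand of the gene, at 29, 30 and 31 bases before the start. The letters TATAAA were in 11.5% of all promoters, counting both strands and any position in the promoter, which is a looser count. It is in capitals in these windows.
TNF, chr6:31575524-31575553, plus strand: gccccagggacaTATAAAggcagttgttgg
TNFSF9, chr19:6530984-6531013, plus strand: tagccaagcagcTATAAAaagcggcgcgct
TNFSF10, chr3:172523444-172523473, minus strand: ttcctcactgacTATAAAagaatagagaag

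The promoter of TNFSF15 held neither motif, and no receptor promoter at hand held TATAAA. Other motifs searched on both strands were the kappa B consensus (in FAS, and in 11.3% of all promoters), TGANTCA (FAS and TNFSF15, 7.71%), GGGCGG (5 genes, 45%), CCAAT (2 genes, 34.6%), CACGTG (TNFRSF21, 7.26%) and TGACGTCA (in none of the 8, 1.85%). None of the matches printed above overlapped a match to another motif. In all these searches a gene was counted if any of its promoters held the motif, whereas the percentages count single promoters. A gene with several promoters, such as FAS, therefore had more chances of a match. A match is a stretch of letters and not a measured site of binding.

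The deposited values are the reads of each gene after scaling by DESeq2 size factors, called normalized counts here. In such bulk libraries, fewer cells of a kind and less RNA per cell cannot be told apart. The libraries held between 52625492 and 87454509 assigned reads, so that 1 read was worth between 0.818 and 1.25 normalized counts. NEK2 itself fell from 3438 ± 229 to 345 ± 54.4 normalized counts (SD, n = 3 per group), 10% of control. The line markers VIM, CD44, ZEB1 and CDH11 were all expressed, although CD44, ZEB1 and CDH11 fell with si-NEK2. Of 6 genes listed as lacking in this line, ESR1, PGR, CDH1 and EPCAM were under a mean of 10 normalized counts, whereas GATA3 and FOXA1 were not, and FOXA1 rose from 826 ± 34.7 to 1851 ± 143 normalized counts (SD, n = 3). Of the leukocyte markers, CD3E and CD14 were under that mean, PTPRC had between 2 and 31 reads per library and ITGAM between 45 and 85. ITGAM fell, from 80.4 ± 25.1 to 47.4 ± 2.87 normalized counts (SD, n = 3). The libraries come from 1 cultured line, and the source of these marker reads was not tested. si-CTRL replicate 1, the smallest library, stood apart from the other libraries on the second principal component, which held 16.2% of the variance, and values without it are given below.

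The 18717 genes whose mean over the 6 libraries reached 10 normalized counts were tested with limma on log2(normalized count + 1). All log2 fold changes are si-NEK2 against si-CTRL on this scale, which makes the change of scarcely read genes look smaller, and those of the tested ligands and receptors over all 6 libraries are given with their standard error (SE) or 95% interval. A gene is said to have risen or fallen where its p-value after Benjamini-Hochberg adjustment did not exceed 0.05. It is called regulated by the study's own thresholds, an unadjusted p-value up to 0.05 with a change of 1.5-fold or more. Of the 10 genes 9 passed the filter, and TNF did not. TNFSF9 and TNFSF10 rose, TNFRSF1B, TNFRSF10A, TNFRSF10B and TNFRSF21 fell, and TNFSF15, TNFRSF1A and FAS did not pass the test. These 6 of 9 genes compare with 43.1% of all genes tested (21.8% higher and 21.3% lower). Regulated were 4 of the 9, TNFSF9, TNFSF10, TNFRSF1B and TNFRSF10B, against 22.5% of all genes (8.23% higher and 14.3% lower). The genes were chosen with earlier results of these data known, so these counts are a description and no test of an excess. The groups did not overlap for the 6 genes that changed, 2 higher and 4 lower, against 55% of all genes tested (28.2% higher and 26.9% lower), nor for TNF. The median log2 fold change over the 9 genes was -0.0050 and that of all genes 0.012. Without si-CTRL replicate 1, the log2 fold change was 0.98 for TNFSF9, 0.64 for TNFSF10 and 0.22 for TNFSF15, and -0.65 for TNFRSF10B, -0.62 for TNFRSF1B, -0.52 for TNFRSF10A, -0.18 for TNFRSF21 and -0.075 for FAS.

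**Figure D1:**
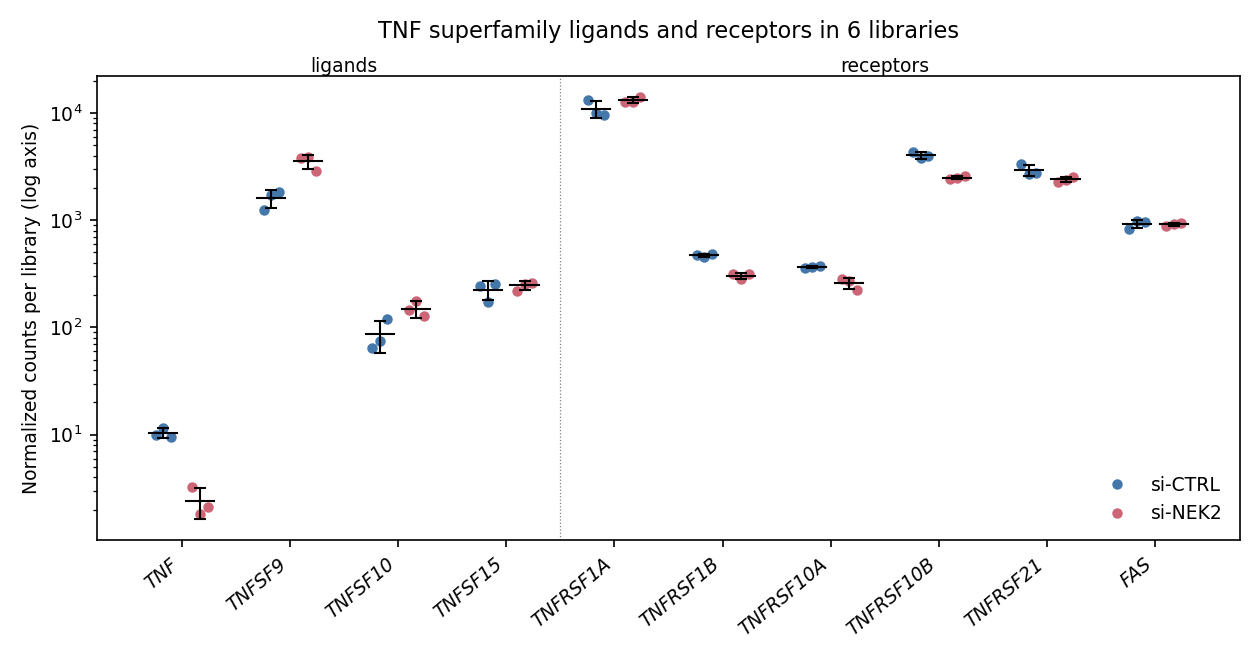
Normalized counts of the 10 genes on a log axis, with 1 point per library (blue si-CTRL, red si-NEK2) and the mean with its SD (n = 3) as bars. The ligands TNFSF9 and TNFSF10 lie higher and the receptors TNFRSF1B, TNFRSF10A, TNFRSF10B and TNFRSF21 lie lower in all si-NEK2 libraries than in any si-CTRL library, while TNF lies at or under 11.6 normalized counts in every library.

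Levels of different genes are compared only per length, as normalized counts per kb of annotated exon (GENCODE 29). In si-CTRL cells TNFRSF1A, the main receptor of TNF, had the highest level of the 10 genes, 3686 ± 656 per kb (SD, n = 3). TNFRSF10B followed with 972 ± 66, TNFSF9 with 960 ± 183 and TNFRSF21 with 809 ± 97.1 per kb, and the libraries of these 3 genes overlapped in level. FAS had 357 ± 29.5, TNFRSF10A 135 ± 3.38 and TNFRSF1B 127 ± 4.36 per kb. The ligands other than TNFSF9 were low, with 44.3 ± 15 for TNFSF10, 28.4 ± 5.65 for TNFSF15 and 6.19 ± 0.661 per kb for TNF. In si-NEK2 cells TNFSF9 moved past TNFRSF10B to 2122 ± 336 per kb, against 599 ± 18.2.

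TNFSF9 is the ligand of the T cell costimulatory receptor TNFRSF9. Its row (GSHG0014510, chromosome 19 from 6531010 to 6535939, hg19) had 1254, 1710 and 1831 normalized counts in si-CTRL replicates 1, 2 and 3 and 3820, 3891 and 2889 in si-NEK2 replicates 1, 2 and 3. The lowest si-NEK2 library was above the highest si-CTRL library, and si-CTRL replicate 1 was the lowest of all. The mean rose from 1598 ± 305 to 3533 ± 559 (SD, n = 3), a log2 fold change of 1.15 (SE 0.16, adjusted p = 0.000603, limma). Of the 9 genes tested, it alone also passed a fold change of 2 in this fit.

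TNFRSF9, the receptor of TNFSF9, had 945, 776 and 848 normalized counts in si-CTRL and 811, 862 and 910 in si-NEK2 replicates 1 to 3. The groups overlapped, and the 95% interval of its log2 fold change went from -0.21 to 0.23 (0.011, adjusted p = 0.940, limma). CD70, a ligand gene that lies 47.2 kb from TNFSF9 in the same cluster, had 3608 ± 202 normalized counts in si-CTRL and 3527 ± 410 in si-NEK2 cells (SD, n = 3; log2 fold change -0.038, 95% interval from -0.25 to 0.18). TNFSF14, on the other side of CD70, had at most 5 reads in any library.

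TNFSF10 encodes TRAIL, which induces apoptosis through TNFRSF10A and TNFRSF10B. Its row (GSHG0022239, chromosome 3 from 172223298 to 172241297, hg19) had 65, 74.6 and 119.8 normalized counts in si-CTRL replicates 1 to 3 and 144, 178 and 127 in si-NEK2 replicates 1 to 3. The groups were close, since si-CTRL replicate 3 lay just under si-NEK2 replicate 3. The mean rose from 86.5 ± 29.3 to 149.7 ± 26 (SD, n = 3), a log2 fold change of 0.82 (SE 0.24, adjusted p = 0.0229, limma). The call was lost in 3 of the 6 fits that each left out 1 library: the adjusted p was 0.0634 when si-CTRL replicate 2 was left out, 0.0612 when si-NEK2 replicate 1 was and 0.0951 when si-NEK2 replicate 2 was (limma). The direction was the same without any 1 library, with a log2 fold change between 0.64 and 1.08.

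TNFSF15, a ligand of TNFRSF25 (GSHG0031096, chromosome 9 from 117546916 to 117568412, hg19), had 242, 173 and 257 normalized counts in si-CTRL replicates 1 to 3 and 220, 257 and 262 in si-NEK2 replicates 1 to 3, and the groups overlapped. Its log2 fold change of 0.15 (SE 0.17, 95% interval from -0.22 to 0.53, adjusted p = 0.495, limma) did not pass the test, and turned to -0.022 without si-CTRL replicate 2. TNFSF8, 87.2 kb from TNFSF15, was under the filter, with 21, 5 and 18 reads in si-CTRL and 2, 5 and 0 reads in si-NEK2 libraries.

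TNF, the founding cytokine of the family (GSHG0025610, chromosome 6 from 31543344 to 31546112, hg19), was close to the limit of detection. It had 8, 12 and 10 reads in si-CTRL replicates 1 to 3 and 4, 2 and 2 reads in si-NEK2 replicates 1 to 3, which are 10, 11.6 and 9.51 against 3.27, 1.81 and 2.13 normalized counts. Every si-NEK2 library was lower than every si-CTRL library. Summed over the libraries these are 30 reads against 8, a ratio of 0.236 of si-NEK2 to si-CTRL after scaling (95% Clopper-Pearson interval from 0.0933 to 0.526, which covers counting error only). Without the filter, limma gave TNF a log2 fold change of -1.76 (adjusted p = 0.0108), and edgeR on the recovered reads gave -2.06 (adjusted p = 0.0157). LTA and LTB, which flank TNF within 2.22 kb, also had few reads, 6 to 25 and 2 to 14 per library, and their groups overlapped.

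Among the receptors, TNFRSF10B (GSHG0133146, chromosome 8 from 22877646 to 22926700, hg19), a death receptor of TRAIL, had 4314, 3769 and 4007 normalized counts in si-CTRL replicates 1 to 3. In si-NEK2 replicates 1 to 3 it had 2410, 2483 and 2561. The groups were far apart relative to their spread. The mean fell from 4030 ± 274 to 2485 ± 75.3 (SD, n = 3), so that 61.7% remained, with a log2 fold change of -0.70 (SE 0.07, adjusted p = 0.00015, limma).

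TNFRSF10A, the other death receptor of TRAIL (GSHG0029466, chromosome 8 from 23048971 to 23082680, hg19), had 356, 365 and 375 normalized counts in si-CTRL replicates 1 to 3 and 283, 268 and 225 in si-NEK2 replicates 1 to 3. The control libraries were nearly equal, and all si-NEK2 libraries lay lower. The log2 fold change was -0.50 (SE 0.12, adjusted p = 0.00822, limma), which is a fold change of 1.42 and under the threshold of 1.5. Among the alternatives it passed that threshold only with libraries brought to an equal total (-0.63).

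The genes for the TRAIL receptors lie side by side on chromosome 8, with both decoy receptors between TNFRSF10B and TNFRSF10A. TNFRSF10D, a decoy with a truncated death domain 27.4 kb from TNFRSF10A, had 2390, 1956 and 1854 normalized counts in si-CTRL and 1685, 1638 and 1875 in si-NEK2 replicates 1 to 3. The groups overlapped (log2 fold change -0.25, 95% interval from -0.49 to -0.0057, adjusted p = 0.0915, limma). TNFRSF10C, a decoy without a cytoplasmic tail that was chosen here after its values were seen, had 6, 4 and 5 reads in si-CTRL and 26, 17 and 35 reads in si-NEK2 replicates 1 to 3. Its mean was 5.38 ± 1.89 normalized counts in si-CTRL and 24.7 ± 11.4 in si-NEK2 cells (SD, n = 3), so that it passed the filter only through the group where it was high, and its values are given as a description with no test.

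Per kb of exon, TNFRSF10A and TNFRSF10B together made up 63.3%, 65.3% and 67.7% of the level of the 4 TRAIL receptors in si-CTRL replicates 1 to 3, and 58.4%, 59.7% and 55.9% in si-NEK2 replicates 1 to 3. The share was thus lower in each si-NEK2 library, with a mean of 65.4% ± 2.21 in si-CTRL and 58% ± 1.89 in si-NEK2 cells (SD, n = 3). It is given as a description, and most of it comes from TNFRSF10B and TNFRSF10D, since TNFRSF10C had 3.13 per kb in si-CTRL and 14.4 in si-NEK2 cells.

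**Figure D2:**
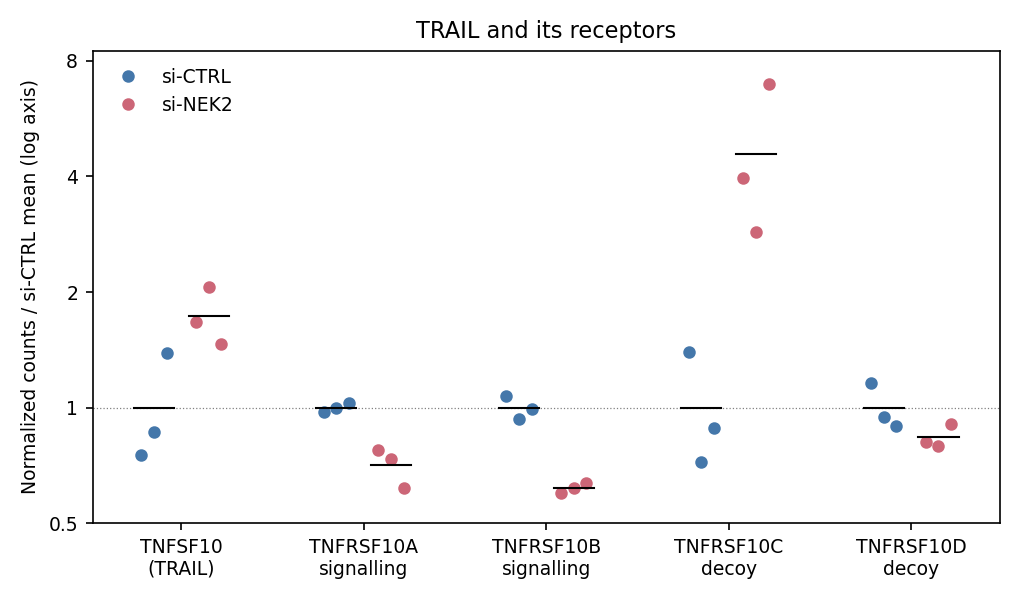
Normalized counts of TRAIL (TNFSF10) and its receptors in each library, divided by the si-CTRL mean of the gene, on a log axis, with lines at the group means (n = 3). TRAIL and the scarce decoy TNFRSF10C lie above 1 and both signalling receptors lie under 1 in the si-NEK2 libraries, while the groups of TNFRSF10D overlap.

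TNFRSF1A and TNFRSF1B are the receptors of TNF. TNFRSF1A (GSHG0007197, chromosome 12 from 6437924 to 6451283, hg19) carries a death domain and is found on most cells. It had 13212, 10083 and 9623 normalized counts in si-CTRL replicates 1 to 3 and 12698, 12763 and 14118 in si-NEK2 replicates 1 to 3. si-CTRL replicate 1 lay among the si-NEK2 libraries, so that the groups overlapped, and the log2 fold change of 0.28 (SE 0.12, 95% interval from 0.016 to 0.54, adjusted p = 0.0823, limma) did not pass the test. Without si-CTRL replicate 1, the library that stood apart, it was 0.42 with an adjusted p of 0.000267 (limma). The row of GAPDH, an abundant glycolytic enzyme, covers 10117 bases of the TNFRSF1A row in the deposited coordinates and had a log2 fold change of 0.24. In GENCODE 29 the exons of these genes share no base, and their transcripts share no stretch of 50 bases. The deposited counts used another annotation, and whether reads were shared there was not tested.

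TNFRSF1B lacks a death domain and signals through TRAF proteins. Its row (GSHG0000133, chromosome 1 from 12227000 to 12269285, hg19) also bears the symbols of the microRNAs MIR4632 and MIR7846, and had 476, 452 and 483 normalized counts in si-CTRL replicates 1 to 3 and 313, 280 and 317 in si-NEK2 replicates 1 to 3. Both groups were tight and did not overlap. The mean fell from 470 ± 16.1 to 303 ± 20.1 (SD, n = 3), a log2 fold change of -0.63 (SE 0.10, adjusted p = 0.00111, limma). It dropped under a fold change of 1.5 with quantile scaling (-0.48) and without si-NEK2 replicate 2 (-0.58), and its adjusted p was at most 0.00879 under all alternatives. The neighbouring gene TNFRSF8, 22.7 kb away, had 12.7 to 26.2 normalized counts per library and did not pass the test (log2 fold change -0.44, adjusted p = 0.261, limma).

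LTBR, the lymphotoxin receptor that lies 33.3 kb from TNFRSF1A, had 4398 ± 741 normalized counts in si-CTRL and 5049 ± 281 in si-NEK2 cells (SD, n = 3). It did not pass the test either, with a log2 fold change of 0.21 (95% interval from -0.05 to 0.47, adjusted p = 0.166, limma). As for TNFRSF1A, si-CTRL replicate 1 was its highest control library and lay among the si-NEK2 libraries. The row of GAPDH, with a log2 fold change of 0.24, also covers the whole LTBR row in the deposited coordinates. Whether reads were shared between these rows was not tested.

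TNFRSF21, a death receptor studied in neurons and T cells (GSHG0026659, chromosome 6 from 47199260 to 47277683, hg19), had 3310, 2674 and 2741 normalized counts in si-CTRL replicates 1 to 3 and 2289, 2374 and 2533 in si-NEK2 replicates 1 to 3. The groups did not overlap, but si-CTRL replicate 1 was well above the other controls. The log2 fold change of -0.27 (SE 0.09, adjusted p = 0.0441, limma) left 82.5% of the control mean, close to the threshold. Without si-CTRL replicate 1 the log2 fold change shrank to -0.18 (adjusted p = 0.0366, limma). Its adjusted p was 0.0635 with no filter, 0.0947 without an intensity trend, 0.0548 without si-CTRL replicate 3, and 0.142, 0.127 and 0.0597 without si-NEK2 replicates 1, 2 and 3 (limma).

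FAS, the death receptor of FASLG (GSHG0033148, chromosome 10 from 90729553 to 90776817, hg19), had 834, 972 and 957 normalized counts in si-CTRL replicates 1 to 3 and 884, 931 and 934 in si-NEK2 replicates 1 to 3. The si-NEK2 libraries all lay within the range of the controls. The means were 921 ± 76.1 and 916 ± 28 (SD, n = 3), and the 95% interval of the log2 fold change went from -0.21 to 0.20, which does not reach a change of 1.5-fold in either direction. FASLG had 0 reads in all si-CTRL libraries and 2 reads in each si-NEK2 library, so that the groups did not overlap. For a single library, 2 reads are within the 3 that a count of 0 allows, and the groups were not tested. In the deposited coordinates the FAS row shares 21602 bases with that of ACTA2 and 5358 with that of STAMBPL1. ACTA2 fell (log2 fold change -0.57, adjusted p = 0.0113, limma) and STAMBPL1 fell (-0.44, adjusted p = 0.00463, limma). Their exons share no base with those of FAS in GENCODE 29, which is not the annotation of the deposited counts.

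**Figure D3:**
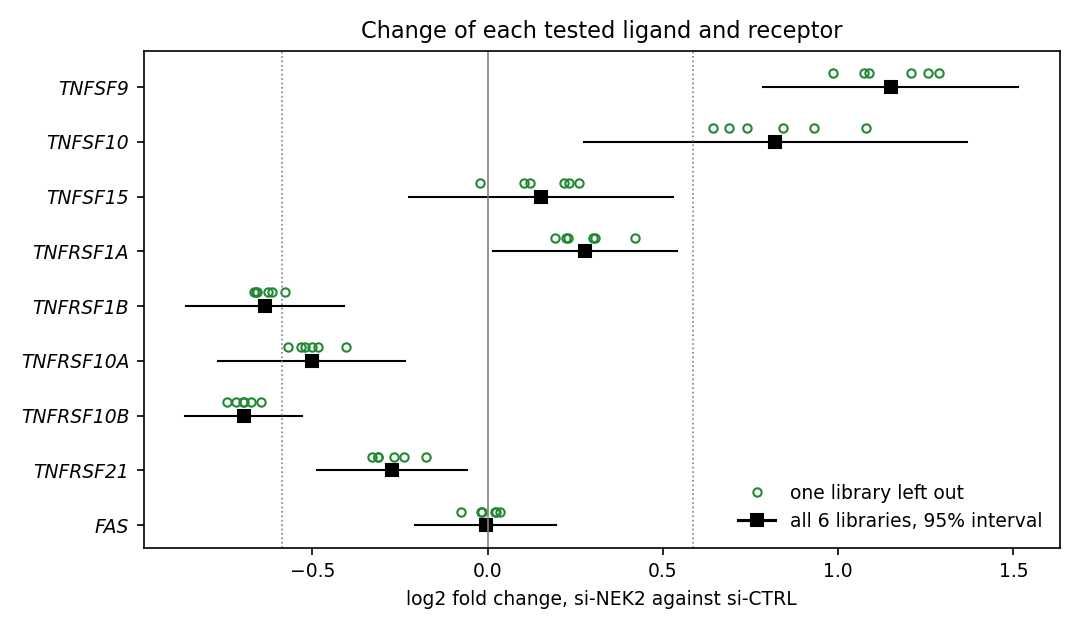
log2 fold change of the 9 tested genes, with squares and lines for all 6 libraries and the 95% interval, and open circles for each fit without 1 library. The dotted lines mark a fold change of 1.5, which TNFSF9, TNFSF10 and TNFRSF10B pass in all these fits, while FAS stays between -0.075 and 0.036.

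By role, of the 3 ligands tested 2 rose and none fell, and of the 6 receptors 4 fell and none rose (limma), where 21.8% of all genes tested rose and 21.3% fell. The ligand TNF was under the filter and is not in these counts, and it was lower in each si-NEK2 library than in any si-CTRL library (8 reads against 30 in sum). The counts are over a few genes, and a difference between ligands and receptors was not tested. At an unadjusted p of at most 0.05, TNFRSF1A was also higher, with a p of 0.0402 (limma), and DESeq2 and edgeR on the recovered reads gave it adjusted p-values of 0.0921 and 0.0989. Of the 5 receptors with a death domain, TNFRSF10A, TNFRSF10B and TNFRSF21 fell, and TNFRSF1A and FAS did not pass. Of 3 further death domain receptors outside the list, TNFRSF25 fell (log2 fold change -0.52, adjusted p = 0.00496, limma) and NGFR fell (-0.86, adjusted p = 0.000797, limma), and EDAR had at most 2 reads per library.

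The other genes of the pathway were read from lists of 71 genes, of which 15 were under the filter. The 56 genes left lie in 55 rows, since TNFSF12 and TNFSF13 share 1. Of these rows 8 rose and 19 fell, against 21.8% and 21.3% of all genes tested. Regulated were 15 rows or 27.3%, against 22.5% of all genes, 2 of them higher and 13 lower, against 8.23% and 14.3%. The rows counted as higher include TNFRSF10C, which passed the filter only through its si-NEK2 libraries. The median log2 fold change of the 55 rows was -0.22, against 0.012 for all genes. These lists too were chosen with earlier results of these data known, and an excess was not tested.

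Of 6 rows of other ligands tested, 2 fell and none rose, against 21.3% and 21.8% of all genes tested. EDA, the ligand of the skin appendage receptor EDAR, fell from 96.8 ± 23.2 to 45.2 ± 3.78 normalized counts (SD, n = 3; log2 fold change -1.06, adjusted p = 0.0046, limma). The row of TNFSF12 and TNFSF13, whose reads the file does not part, fell from 208 ± 25.2 to 119.4 ± 10.4 (log2 fold change -0.79, adjusted p = 0.00223, limma). CD40LG and TNFSF11 had no read in any library, and a count of 0 allows up to 3 reads in each.

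Of 12 other signalling receptors tested, 5 fell and 1 rose, against 21.3% and 21.8% of all genes tested. Regulated were 4, all lower, against 14.3% of all genes regulated lower. CD40, which activates NF-kB through TRAFs, fell from 2815 ± 268 to 1705 ± 34.6 normalized counts (SD, n = 3; log2 fold change -0.72, adjusted p = 0.000233, limma). TNFRSF19 fell by 0.80 and TNFRSF13C, the receptor of the B cell factor TNFSF13B, by 0.68 on the log2 scale, beside NGFR above. TNFRSF12A, the receptor of TNFSF12 and at 14181 per kb far above TNFRSF1A in si-CTRL cells, rose by a log2 fold change of 0.25 (adjusted p = 0.0494, limma).

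Of the 4 decoy receptors 1 row fell, against 21.3% of all genes tested, and TNFRSF10C is described above. The row that fell is that of TNFRSF6B, which soaks up FASLG. That row also holds RTEL1, and its log2 fold change was -0.47 (adjusted p = 0.00266, limma). Its reads cannot be given to 1 of these genes.

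**Figure D4:**
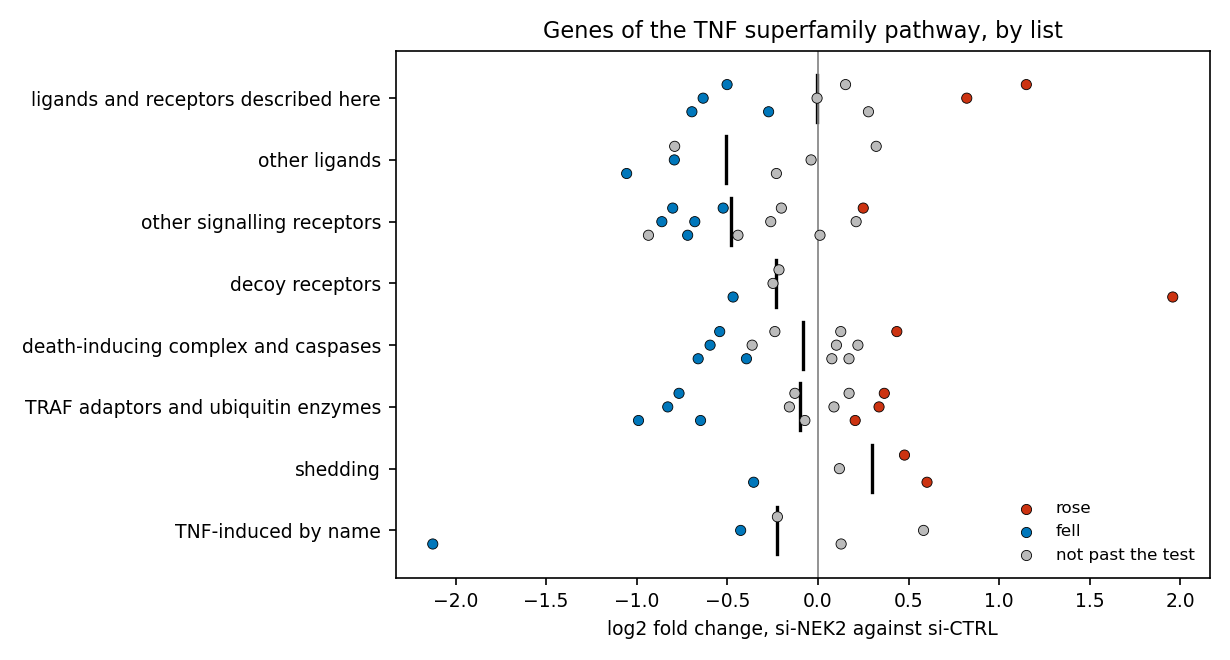
log2 fold changes of the tested genes of each list (1 point per row of the table, red for rose, blue for fell, grey for not past the test), with the 9 tested ligands and receptors described here in the top row and a black line at the median of the list. Lower points outnumber higher ones among other ligands and other signalling receptors, and the shedding list has the highest median of those shown, 0.30. The red point at 1.96 is TNFRSF10C, given as a description only.

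In the death-inducing complex, 1 of 12 genes tested rose and 4 fell, against 21.8% and 21.3% of all genes tested. FADD, the adaptor of FAS and the TRAIL receptors, had a log2 fold change of 0.10 (95% interval from -0.29 to 0.50) and TRADD, the adaptor of TNFRSF1A, of 0.077 (from -0.89 to 1.04). CASP8, the initiator caspase, fell by 0.39 on the log2 scale (adjusted p = 0.00305, limma). Past a fold change of 1.5 were BID, which links caspase 8 to mitochondria, at -0.66 on the log2 scale (adjusted p = 0.000573, limma), and MLKL, the effector of necroptosis, with -0.60 (adjusted p = 0.00242, limma). RIPK3, the kinase that activates MLKL, had 0 reads in all 6 libraries. The row of DIABLO, an antagonist of inhibitors of apoptosis, rose (0.44) but is shared with VPS33A. CFLAR, the inhibitor of caspase 8 at the receptor, had a log2 fold change of -0.24 (95% interval from -0.50 to 0.021).

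Among TRAF adaptors and ubiquitin enzymes, 3 of 12 genes rose and 4 fell, against 21.8% and 21.3% of all genes tested. BIRC3, an E3 ligase at the TNF receptor complex, fell from 2584 ± 419 to 1292 ± 97.3 normalized counts (SD, n = 3; log2 fold change -0.99, adjusted p = 0.000269, limma). TRAF1 fell by 0.83, RBCK1, a subunit of the linear ubiquitin ligase, by 0.77 and TRAF5 by 0.65 on the log2 scale. OTULIN, which removes linear ubiquitin, and TRAF6 rose, by log2 fold changes of 0.37 and 0.34. The row of RNF31, shared with IRF9, rose by 0.21.

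Of the 4 genes of the shedding list, 2 rose and 1 fell, against 21.8% and 21.3% of all genes tested. Their median log2 fold change of 0.30 was the highest of the pathway lists, against 0.012 for all genes. ADAM10 rose from 6315 ± 149 to 9588 ± 361 normalized counts (SD, n = 3; log2 fold change 0.60, adjusted p = 0.000124, limma) and ADAM17, the protease that releases TNF, rose from 1616 ± 147 to 2246 ± 132 (log2 fold change 0.48, adjusted p = 0.00254, limma). RHBDF1, a partner of ADAM17, fell (log2 fold change -0.35, adjusted p = 0.0462, limma), although its groups overlapped. RHBDF2 did not pass the test.

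Of the 5 genes named as induced by TNF, 2 fell and none rose, against 21.3% and 21.8% of all genes tested. TNFAIP3, an inhibitor of NF-kB signalling, fell from 2498 ± 734 to 557 ± 36.9 normalized counts (SD, n = 3; log2 fold change -2.13, SE 0.18, adjusted p = 4.68e-05, limma). TNFAIP2 fell by 0.43 on the log2 scale (adjusted p = 0.0103, limma). TNFAIP6, a hyaluronan-binding protein, was higher in each si-NEK2 library than in any si-CTRL library, but with an adjusted p of 0.0632 (limma) it did not pass.

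The annotated transcripts of the 10 genes had few stretches in common with other genes. Of the stretches of 50 bases in the annotated transcripts of each of the 10 genes, at most 1.03% (TNFSF15) also occurred in a transcript of another gene, and none did for TNF, TNFSF9, TNFSF10, TNFRSF21 and FAS. TNFRSF10A and TNFRSF10B shared no such stretch with each other or with the decoy receptor genes TNFRSF10C and TNFRSF10D. Antisense exons cover 8.25% of the exon bases of TNFRSF10A and 1.62% of those of TNFRSF10B, and whether the counting used strand is not stated.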

How the data were processed

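PolyA RNA of MDA-MB-231 cells was sequenced by the authors, 3 libraries per group. The submitters' processing notes name FastQC, Picard, SAMtools, STAR 2.4.0, DESeq2 and hg19, and the methods FAST DB annotation. The counter and its strand setting are not given in the sources used here. The deposited signal is the reads of each gene after scaling by DESeq2 size factors. 100% of values were whole multiples of 1 read (tolerance 0.01 read), which gave back the reads, and every pair of libraries of a group differed by more than sampling noise.

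Genes whose mean reached 10 normalized counts were tested with limma 3.58.1 (R 4.3.3) on log2(value + 1), eBayes with trend. Tried in turn were a pseudocount of 0.1 or 5, a filter at a mean of 50 or none, upper quartile and equal total scaling, no trend, a replicate block, each library left out, edgeR 4.0.16, DESeq2 1.42.0, an adjusted p and a fold change of at least 2. Quantile scaling and edgeR without a filter were added after the data were seen. Scripts were tested on simulated data. The members, lists and motifs were chosen with earlier results of these data known. The text names all members and, from each list, up to 4 regulated genes with a mean of 50 or more normalized counts, and some genes at 0 reads; other genes named were chosen after their values were seen. Exon lengths and shared stretches are from GENCODE 29 (GRCh38) and promoters from RefSeq (GRCh38.p14), matched by symbol. Some genes of the lists are counted but not reported here by name.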

Additional observations from a re-analysis of the deposited data

How the results depend on the processing

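A fold change of at least 2 in place of 1.5 removes genes by construction. It left 1 of the 4 regulated members (TNFSF9), 3 of the 15 regulated pathway genes and 1637 of the 4213 regulated genes of the table. These 1637 are 8.75% of the 18717 genes tested. Across the fits that each left out 1 library, the counts regulated at 1.5-fold lay between 3 and 4, 12 and 17, and 3913 and 4436. Under the other alternatives 3 to 5 of the 10 genes were regulated, TNF joining without a filter and TNFRSF10A with equal total scaling, and TNFRSF1B leaving with quantile scaling and without si-NEK2 replicate 2. Equal total scaling set the median of all genes to -0.11, against 0.012, and the share of higher among regulated genes to 21.3%, against 36.6%. The log2 fold change of NEK2 lay between -3.45 and -3.19, and TNFSF9, TNFRSF1B, TNFRSF10A and TNFRSF10B kept their direction and their side of the adjusted p threshold under all 17 alternatives. Small changes turned sign for TNFSF15 (-0.022 without si-CTRL replicate 2, the lowest of the fits without 1 library, which reached 0.26) and for FAS. FAS had 0.026 with quantile scaling, and without 1 library it lay between -0.075 and 0.036, above 0 when the library left out was si-CTRL replicate 2 (0.036) or 3 (0.024) or si-NEK2 replicate 1 (0.021). TNFRSF1A passed with upper quartile scaling (adjusted p = 0.0393, limma). The replicate numbers did not pair the samples: the deviations of same-numbered samples correlated at -0.09, 0.05 and -0.15 across genes. With the replicate number as a block, 4 of the 10 genes, 15 pathway genes and 4084 genes of the table were regulated, the log2 fold change of NEK2 was -3.32, and TNFRSF21 had an adjusted p of 0.086 (limma). Depth limits TNF, FASLG, TNFRSF10C and the other genes with a few reads per library.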
